A study of Mus musculus with 19 samples.

Results

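The protein-coding genes on mouse chromosome 11 described here, Lsm12, Med1, Arf2 and Arl5c, were followed across 6 groups of sorted dendritic cells that differ in Xbp1 and in Ern1, the gene of the sensor kinase IRE1. They are 4 of the 24421 gene symbols in the count tables and 4 of the 449 symbols that lie within 10 Mb of Ern1. They were picked with earlier results of these data known, for their differences between genotypes, so the genotype contrasts below describe them and test nothing. The question put to them was whether each one changes in Xbp1 KO and not in Xbp1-Ire1 KO in both cell types. Lsm12, Med1 and Arf2 did so in these libraries. Arl5c did so in one cell type and not in the other.

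The 19 RNA-seq libraries came from conventional dendritic cells of the spleen, type 1 (cDC1) and type 2 (cDC2), of C57BL6 mice, sorted by flow cytometry. In cDC1 there were 3 WT, 3 Xbp1 KO and 3 Xbp1-Ire1 KO libraries, and in cDC2 there were 4 WT, 3 Xbp1 KO and 3 Xbp1-Ire1 KO libraries. The labels name 4 of the WT libraries (2 per cell type) as floxed at both genes (fl-fl) and the other 3 (1 of cDC1 and 2 of cDC2) as WT. The labels give no Cre driver, no deleted exons, no age and no litter, and they do not say which libraries come from separate mice, so an error or a p-value measures only the spread between these libraries. Whether the KO and WT animals differ in more than the named genes, for instance in DNA linked to a targeted allele, cannot be told apart from genotype in this design.

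IRE1 is a stress sensor in the membrane of the endoplasmic reticulum, and once active it cuts Xbp1 mRNA so that the joined product encodes the transcription factor XBP1s. Without XBP1, IRE1 is known to be overactive in cDC1 and to cut further RNAs, which is why deleting both genes is used to separate loss of XBP1 from activity of IRE1. The 4 genes have unlike roles. Lsm12 encodes an LSm-domain protein that binds ataxin-2, and Med1 encodes the Mediator subunit through which nuclear receptors contact the transcription machinery. Arf2 encodes a class I ARF, a small GTPase that recruits vesicle coats at the Golgi, and Arl5c encodes a GTPase of the ARL5 group, whose better-known members act at the trans-Golgi network.

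Total counts ran from 10606864 to 16209469 per library. Xcr1, a defining cDC1 receptor, lay between 813 and 1281 CPM (counts scaled to library size) in cDC1 and between 5.66 and 19.5 CPM in cDC2, and Sirpa, which marks cDC2, lay between 5.31 and 68 CPM in cDC1 and between 1300 and 1701 CPM in cDC2. Within cDC1, Xcr1 was 813 to 1010 CPM in WT, between 1223 and 1281 CPM for Xbp1 KO, and between 896 and 1003 CPM for Xbp1-Ire1 KO, and the sum of 6 cDC1 markers was 4197 to 5062, 5615 to 6468 and 4011 to 5191 CPM in that order. In cDC2 that sum was 983 to 1126, 918 to 983 and 890 to 983 CPM. The part of these marker levels in the results below was not tested. One library stood apart: the summed level of 15 pancreatic acinar transcripts was 2090 CPM in replicate 3 of cDC1 Xbp1 KO, and no other library passed 9.99 CPM. The summed markers of red pulp macrophages ranged from 409 to 1132 CPM in cDC2 Xbp1 KO and from 397 to 540 CPM in cDC2 WT, and their part in the results below was not tested. In bulk libraries fewer cells of a type and less RNA per cell cannot be told apart.

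The targeted genes come first. Counts over a whole gene check a deletion only as far as the deleted exons reach, and the labels do not name those. Xbp1 measured 233, 145 and 143 CPM in the cDC1 WT libraries, 95.1, 89.7 and 113 in those of Xbp1 KO and then 353, 337 and 301 in those of Xbp1-Ire1 KO. In cDC2 it measured 160, 103, 72.6 and 76.4 CPM in the WT libraries, 44.4, 56.9 and 42 in those of Xbp1 KO and then 63.3, 78.1 and 57.3 in those of Xbp1-Ire1 KO. All Xbp1 KO libraries lay below all WT libraries of their cell type, whereas the Xbp1-Ire1 KO libraries lay above WT in cDC1 and overlapped it in cDC2. Ern1 measured 22.4, 29 and 23.3 CPM in the cDC1 WT libraries, 31.8, 33.1 and 26.7 in those of Xbp1 KO and then 71.3, 60.6 and 50.5 in those of Xbp1-Ire1 KO. In cDC2 Ern1 stayed between 20.6 and 32.1 CPM over all 10 libraries. Its whole-gene level was thus lowered in neither cell type by the label Xbp1-Ire1 KO, and the Ern1 counts do not check that label.

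On the GRCm38 build Arl5c spans chr11:97989578-97996181 on the minus strand and Med1 spans chr11:98152154-98193293 on the same strand. Lsm12 spans chr11:102162497-102185296 on the minus strand, and Arf2 spans chr11:103966739-103985337 on the plus strand. Ern1 itself spans chr11:106394650-106487852 on the minus strand. All 4 genes therefore lie on one side of Ern1, at 8.40, 8.20, 4.21 and 2.41 Mb from it, and Xbp1 lies 100.87 Mb from Ern1 near the other end of the chromosome. Arl5c and Med1 are close neighbours, 156.0 kb apart with 3 tested genes between them, but 60 tested genes separate Med1 from Lsm12 and 29 separate Lsm12 from Arf2.

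Lsm12 was lower in every Xbp1 KO library of both cell types than in any WT or Xbp1-Ire1 KO library. In cDC1 it measured 84.5, 78.9 and 83.7 CPM in the WT libraries, 46.3, 43.9 and 47.2 in those of Xbp1 KO and then 102, 84.2 and 99.1 in those of Xbp1-Ire1 KO. In cDC2 it measured 80.5, 64.7, 86.1 and 94.1 CPM in the WT libraries, 37.9, 32.1 and 39.8 in those of Xbp1 KO and then 89.6, 87.8 and 101 in those of Xbp1-Ire1 KO. The Xbp1 KO libraries formed a narrow low group, and the WT and Xbp1-Ire1 KO libraries overlapped each other. The log2 fold change in Xbp1 KO against WT was -0.85 ± 0.12 (SE; 3 against 3 libraries) in cDC1 and -1.15 ± 0.15 (SE; 3 against 4) in cDC2, a 1.80-fold and a 2.22-fold lower level. Against WT, Xbp1-Ire1 KO stood at 0.21 ± 0.12 and 0.19 ± 0.14 on the same scale. Between the KO genotypes the log2 difference, Xbp1-Ire1 KO minus Xbp1 KO, was 1.05 ± 0.13 in cDC1 and 1.34 ± 0.15 in cDC2.

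Med1 showed the same order with smaller steps. In cDC1 its level was 122, 115 and 107 CPM in the WT libraries, 79.7, 82.8 and 78.5 in those of Xbp1 KO and then 108, 121 and 110 in those of Xbp1-Ire1 KO. The cDC2 libraries gave 130, 136, 160 and 115 CPM in the WT libraries, 76.5, 83.2 and 75.2 in those of Xbp1 KO and then 120, 108 and 115 in those of Xbp1-Ire1 KO. Again no Xbp1 KO library reached the lowest WT or Xbp1-Ire1 KO library, and WT and Xbp1-Ire1 KO overlapped. The log2 fold change in Xbp1 KO was -0.51 ± 0.12 in cDC1 and -0.79 ± 0.13 in cDC2, or 1.43-fold and 1.72-fold lower. In Xbp1-Ire1 KO it was -0.02 ± 0.11 and -0.24 ± 0.13. Med1 lay nearest to the threshold of the calls reported below, and its call in Xbp1 KO against WT was lost on leaving out any one of cDC1 WT replicates 1 and 2 and Xbp1 KO replicates 1 and 2, or any one of cDC2 WT replicates 1, 2 and 3 and Xbp1 KO replicates 1, 2 and 3. Its log2 fold change over all these fits ran from -0.53 to -0.46 in cDC1 and from -0.82 to -0.69 in cDC2.

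Arf2 moved the other way. It measured 24.4, 26.8 and 18.9 CPM in the cDC1 WT libraries, 93, 76.4 and 76.9 in those of Xbp1 KO and then 26.5, 23.9 and 24.5 in those of Xbp1-Ire1 KO. In cDC2 it measured 39.2, 49.8, 29.7 and 36.5 CPM in the WT libraries, 105, 139 and 85.4 in those of Xbp1 KO and then 33.1, 45.1 and 35.6 in those of Xbp1-Ire1 KO. Every Xbp1 KO library was above every other library of its cell type, with a wide gap, and the remaining groups overlapped. The log2 fold change in Xbp1 KO was 1.81 ± 0.16 in cDC1 and 1.5 ± 0.19 in cDC2, or 3.51-fold and 2.83-fold higher. Xbp1-Ire1 KO differed from WT by 0.09 ± 0.16 and -0.04 ± 0.20.

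Arl5c departed from the others. Its cDC1 level was 35.5, 23.4 and 33.5 CPM in the WT libraries, 42.2, 30 and 47.7 in those of Xbp1 KO and then 16.9, 11.4 and 18.4 in those of Xbp1-Ire1 KO. Its cDC2 level was 30.9, 41.9, 49.7 and 43.1 CPM in the WT libraries, 144, 132 and 139 in those of Xbp1 KO and then 50.8, 83.4 and 31.2 in those of Xbp1-Ire1 KO. In cDC1 the Xbp1 KO and WT libraries overlapped and all Xbp1-Ire1 KO libraries were below both, whereas in cDC2 the Xbp1 KO libraries stood far above the rest. The log2 fold change in Xbp1 KO was 0.38 ± 0.23 in cDC1 and 1.74 ± 0.25 in cDC2, and in Xbp1-Ire1 KO it was -0.98 ± 0.23 and 0.41 ± 0.25. The step between the KO genotypes, Xbp1-Ire1 KO minus Xbp1 KO, was nevertheless -1.36 ± 0.24 in cDC1 and -1.33 ± 0.27 in cDC2. The cDC2 Xbp1-Ire1 KO libraries were the most scattered of any group, at 55.1 ± 26.4 CPM (SD, n = 3), and the highest of them was replicate 2.

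**Figure D1:**
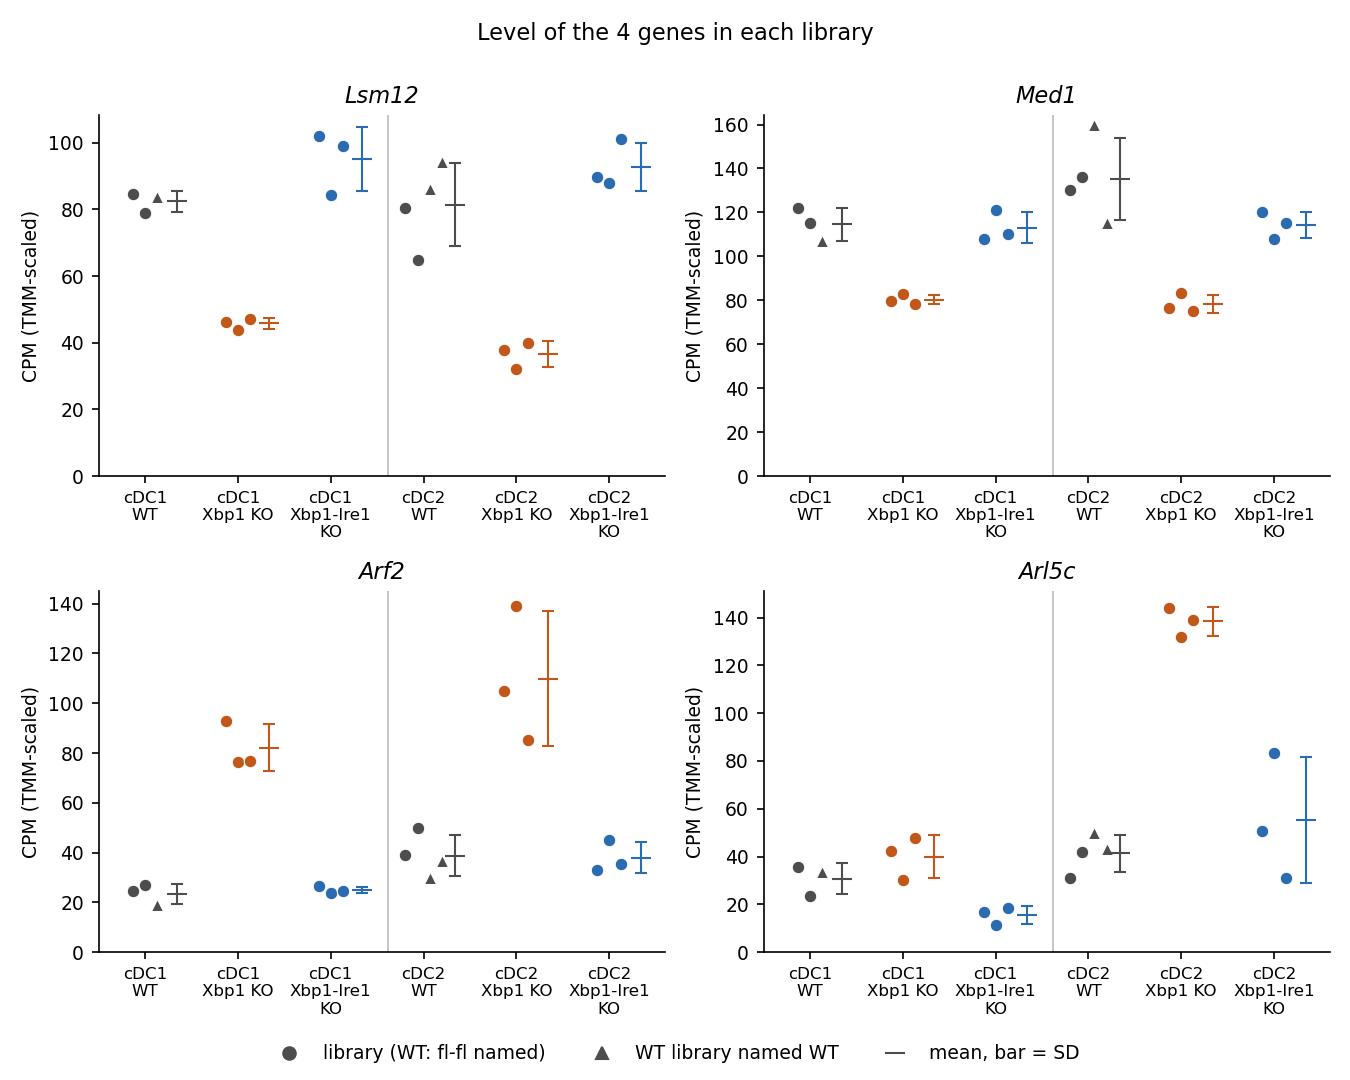
TMM-scaled CPM (vertical axes, from 0) of Lsm12, Med1, Arf2 and Arl5c in the 6 groups; each point is 1 library, triangles are WT libraries that the labels name WT, and the bar beside each group is the mean with its SD. The Xbp1 KO libraries are the lowest for Lsm12 and Med1 and the highest for Arf2 in both cell types, while for Arl5c they stand apart in cDC2, at 132 to 144 CPM, and overlap WT in cDC1.

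Subtracting the cDC2 effect from the cDC1 effect put numbers on this. For Xbp1 KO against WT the difference of log2 fold changes, cDC1 minus cDC2, was 0.30 ± 0.19 (SE) for Lsm12, 0.26 ± 0.16 for Med1 and 0.30 ± 0.26 for Arf2. For Arl5c it was -1.37 ± 0.37, and for Xbp1-Ire1 KO against WT it was -1.41 ± 0.38. These differences are given without a test, since the genes were chosen on the effects they are made of. Their SE takes the cDC1 and cDC2 libraries as independent, and whether some share a mouse is not given. Both Arl5c values are taken against the same WT libraries, so their likeness is no separate result.

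**Figure D2:**
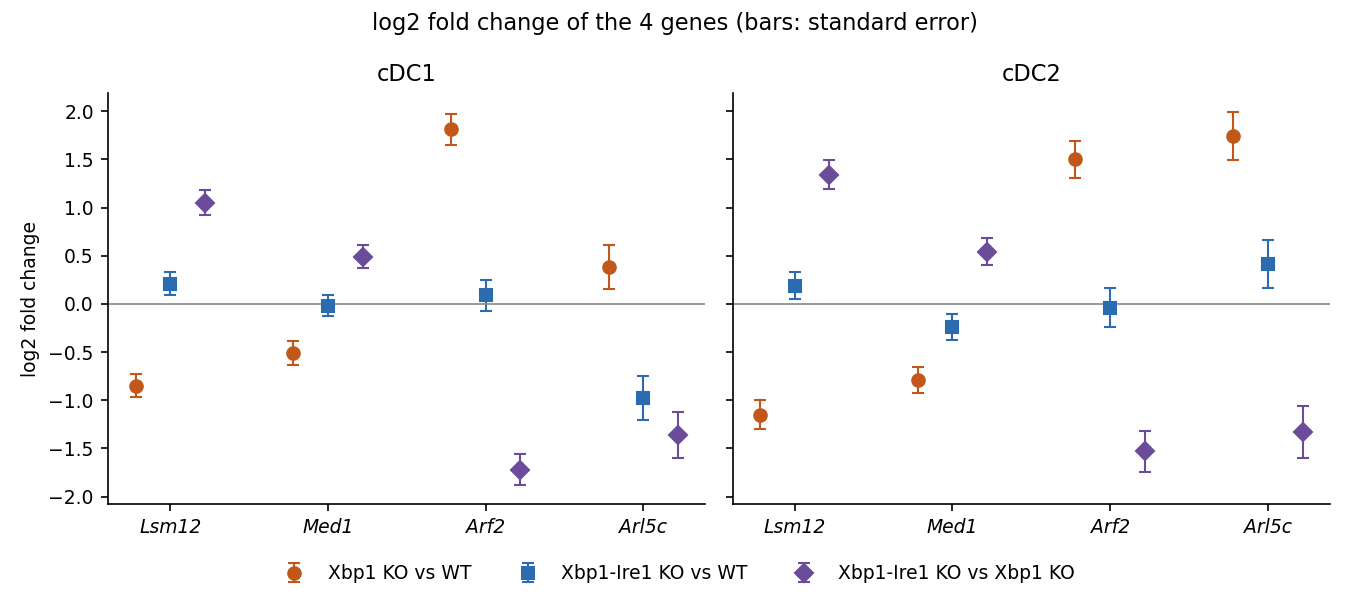
log2 fold change (vertical axis) of the 4 genes in the 3 comparisons within cDC1 (left) and cDC2 (right); points are edgeR estimates and bars their standard errors. The squares, Xbp1-Ire1 KO against WT, lie between -0.24 and 0.41 for every gene and cell type except Arl5c in cDC1, at -0.98.

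The calls of the fit over all genes, at an adjusted p below 0.05, are given as counts only. In cDC1 Xbp1 KO against WT 3 of the 4 genes were called (not Arl5c), and 11.2% of the 11353 genes tested were. In cDC2 all 4 were called, among 12 called genes or 0.103% of the 11646 tested. For Xbp1-Ire1 KO against WT the count was 1 in cDC1, Arl5c, beside 7.75% of all genes tested, and 0 in cDC2, beside 0.0258%, where 0 had an unadjusted edgeR p below 0.05 and DESeq2 also called 0; the single cDC1 call was lost on leaving out WT replicate 1 or Xbp1-Ire1 KO replicate 1 or 2. For Xbp1-Ire1 KO against Xbp1 KO all 4 were called in cDC1, beside 12.7% of all genes, and 2 in cDC2, Lsm12 and Arf2, beside 0.0343%; there Arf2 was not called without Xbp1-Ire1 KO replicate 1 or 3 or Xbp1 KO replicate 1 or 2, and Arl5c became called without Xbp1-Ire1 KO replicate 2. Groups that did not overlap were counted the same way. For Xbp1 KO against WT this held for 3 of the 4 in cDC1 and 4 in cDC2, beside 30.1% and 9.8% of all genes; for Xbp1-Ire1 KO against WT it held for 1 and 0, beside 26.4% and 6.16%; and for Xbp1-Ire1 KO against Xbp1 KO it held for 4 and 4, beside 36.7% and 15.8%. Because the genes were chosen from these contrasts, nothing is read from the counts. Without cDC1 Xbp1 KO replicate 3, the library with acinar transcripts, Lsm12, Med1 and Arf2 were still called in Xbp1 KO against WT.

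The same pattern of calls was counted over all genes tested in both cell types. Xbp1 KO differed from WT in the same direction in both for 9 of 10967 genes, 0.0821%, and for 6 of them, 0.0547%, Xbp1-Ire1 KO was called against WT in neither. These 6 were Lsm12, Med1 and Arf2, with Itgad on chromosome 7 and Mettl17 and Supt16 on chromosome 14. A missing call does not show a return to the WT level. In cDC2 Xbp1-Ire1 KO against WT only 0.0258% of all genes tested were called. Itgad and Supt16 stayed higher than WT in cDC2 Xbp1-Ire1 KO by the values that follow. Itgad, an integrin alpha chain, stood at a log2 fold change of 2.00 ± 0.60 in Xbp1 KO and 1.38 ± 0.59 in Xbp1-Ire1 KO of cDC1, and at 2.76 ± 0.37 and 2.33 ± 0.37 in cDC2. Supt16, a subunit of the histone chaperone FACT, stood at 1.78 ± 0.31 and 0.54 ± 0.30 in cDC1 and at 1.82 ± 0.25 and 1.06 ± 0.25 in cDC2. Mettl17 stood at -2.22 ± 0.58 and -0.5 ± 0.54 in cDC1 and at -2.7 ± 0.43 and -0.75 ± 0.38 in cDC2. In cDC1 the call of Itgad was lost without any one of WT replicates 1 and 2 and Xbp1 KO replicates 1 and 2, and that of Mettl17 without any one of WT replicates 1 and 2 and Xbp1 KO replicates 2 and 3. In cDC2 the call of Mettl17 was lost without any one of WT replicates 1, 2 and 3 or Xbp1 KO replicates 1, 2 and 3. A second count, which needs no call in either comparison, asks that all Xbp1 KO libraries lie beyond all WT and all Xbp1-Ire1 KO libraries on the same side in both cell types. It held for 72 of the 10967 genes, 0.657%, among them Lsm12, Med1 and Arf2 but not Arl5c, Itgad, Mettl17 or Supt16.

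Of the 221 genes within 10 Mb of Ern1 that were tested in both cell types, 5 met that second rule, 2.26%. The other 2 were Sumo2, a ubiquitin-like modifier, and the transcript C130046K22Rik. Within 10 Mb of Xbp1 it was met by 2 of 64 genes, Xbp1 itself and Pold2, and over the rest of chromosome 11 by 2 of 611, 0.327%. The 3 of the 5 that were chosen for this behaviour make up most of the count near Ern1, so the excess there is a description of the choice.

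Most genes of the region did not share the pattern. Within 10 Mb of Ern1, 26 of 227 genes tested were called in cDC1 Xbp1 KO against WT, 11.5% beside 11.2% of all genes, and 18 of the 26 were lower. Limd2, which encodes a LIM-domain protein, was at a log2 fold change of -1.83 ± 0.13 (Benjamini-Hochberg adjusted p = 1.52e-06, edgeR quasi-likelihood) in cDC1 and -0.20 in cDC2. Grn, the gene of the lysosomal protein progranulin, was at -1.27 ± 0.18 (edgeR adjusted p = 0.000471) in cDC1 and -0.21 in cDC2. WT-named libraries differed from fl-fl libraries in Grn by -0.75 ± 0.16 in cDC1 and -0.72 ± 0.15 in cDC2. Its cDC1 value in Xbp1 KO against WT ran from -1.47 to -0.72 over refits with other settings or libraries. Bptf, a subunit of the NURF chromatin remodeller, rose by 1.29 ± 0.24 (edgeR adjusted p = 0.00471) in cDC1 and stood at 0.26 in cDC2. The call for Bptf was lost against the WT-named library alone (edgeR adjusted p = 0.0984). In cDC2 4 of 234 genes of the region were called, 1.71%, and they were Lsm12, Med1, Arf2 and Arl5c. DESeq2 called 8 there. On the rest of chromosome 11, outside the Ern1 and Xbp1 regions, edgeR's quasi-likelihood test called 0 of 645 genes, DESeq2 called 2, and 62 had an unadjusted edgeR p below 0.05. The median log2 fold change of the region was -0.09 in cDC1 and -0.01 in cDC2, beside -0.02 over all genes in each. For cDC1 Xbp1-Ire1 KO against WT, 24 of the 227 genes were called, 10.6% beside 7.75% of all genes. For cDC1 Xbp1-Ire1 KO against Xbp1 KO, 38 were called, 16.7% beside 12.7%. In cDC2 these comparisons called 0 and 2 of the 234. The chosen genes are counted in these numbers.

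**Figure D3:**
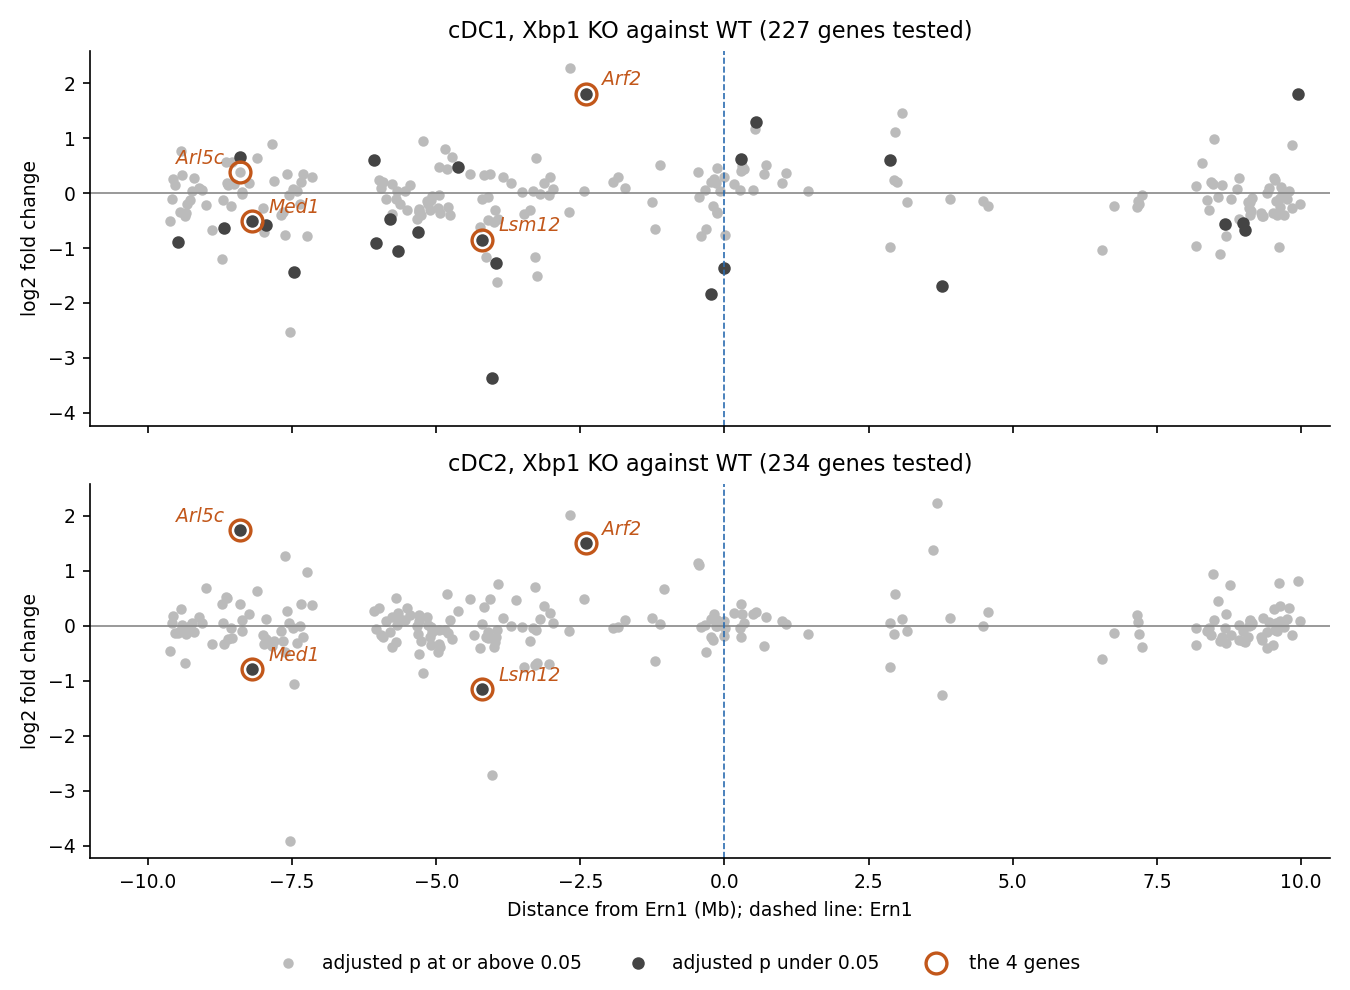
log2 fold change in Xbp1 KO against WT (vertical axis) of every tested gene within 10 Mb of Ern1, by distance from Ern1 in Mb (horizontal axis), in cDC1 (top) and cDC2 (bottom); dark points passed an adjusted p of 0.05 and rings mark the 4 genes. In cDC1 26 genes on both sides of Ern1 passed, and in cDC2 the 4 ringed genes did by edgeR.

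Of the 8 tested genes next to the 4, 1 passed the test in Xbp1 KO against WT. Between the KO genotypes of cDC1, Xbp1-Ire1 KO minus Xbp1 KO, Kansl1 stood at -0.52 ± 0.13 and Cdk12 at -0.89 ± 0.26. Both were called there (edgeR adjusted p = 0.0235 and 0.0409). These calls were lost in 4 and 5 of the 6 fits that left out 1 library. Nsf, 12.7 kb before Arf2 and the gene of the ATPase that takes SNARE complexes apart, stood at 0.04 ± 0.14 in cDC1 and 0.49 ± 0.12 in cDC2 in Xbp1 KO against WT (edgeR adjusted p = 0.896 and 0.307), and Kansl1, 347.9 kb beyond it, at 0.20 ± 0.13 and -0.04 ± 0.11. Around Lsm12, Tmem101 at 6.1 kb stood at -0.61 ± 0.23 and -0.40 ± 0.23, and G6pc3, a glucose-6-phosphatase at 4.3 kb, at -0.11 ± 0.30 and 0.04 ± 0.20. Cdk12, the transcription kinase 9.8 kb from Med1, stood at 0.63 ± 0.26 and 0.63 ± 0.24, opposite in sign to Med1, and Fbxl20 on its other side at 0.18 ± 0.24 and 0.22 ± 0.16. Beside Arl5c, Plxdc1 at 3.1 kb stood at 0.65 ± 0.17 and 0.40 ± 0.16 and Cacnb1 at 5.3 kb at 0.02 ± 0.53 and 0.10 ± 0.42. Plxdc1 was the neighbour called in Xbp1 KO against WT, in cDC1 (edgeR adjusted p = 0.0312). That call was lost without WT replicate 1 or 2 or without Xbp1 KO replicate 1 or 3. The window itself was set at 10 Mb: Snx11, at 9.617 Mb and the outermost tested gene on the side of the 4, stood at -0.50 ± 0.17 and -0.45 ± 0.16, and Hoxb4, at 10.073 Mb and just outside it, at 0.60 ± 0.70 and -0.24 ± 0.96.

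Reads of close copies could move counts between genes, so the transcripts of the 4 were compared with all other annotated transcripts in stretches of 50 bases. For Arf2 0 of 2943 stretches occurred in another gene. For Med1 14 of 8839 did, and for Arl5c 41 of 2024. For Lsm12 278 of 2532 stretches, 11%, also occurred in Gm9727, which has no counts of its own in the tables. Med1 also overlaps the processed pseudogene Gm11604 on the other strand, and without a stated strand setting reads of the pair cannot be told apart. The symbol Med1 has also been used for Mbd4, a DNA repair enzyme with counts of its own, and Mbd4 stood at 0.42 ± 0.25 in cDC1 and 0.19 ± 0.16 in cDC2 in Xbp1 KO against WT.

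The class I ARF proteins are near-identical, so the coding bases of Arf2 were also compared with those of Arf1 and Arf3. Over the 543 coding bases Arf2 shared 80.5% with Arf1 and 80.1% with Arf3, and the longest identical runs were 17 and 20 bases. The first 60 coding bases are shown as an example of how the 3 genes differ. They come from GENCODE M21 transcripts, lie in coding exons at chr11:103969098-103969157 (plus strand), chr11:59213428-59213487 (minus strand) and chr15:98742681-98742740 (minus strand), and read 5′ to 3′. Capitals mark bases that differ from Arf2, 11 in Arf1 and 16 in Arf3.
Arf2: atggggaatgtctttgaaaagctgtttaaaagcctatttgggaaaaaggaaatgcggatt
Arf1: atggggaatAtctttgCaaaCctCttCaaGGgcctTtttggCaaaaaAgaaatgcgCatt
Arf3: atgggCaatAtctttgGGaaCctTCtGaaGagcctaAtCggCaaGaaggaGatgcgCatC

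Arf2 is a minor member of its class in these cells. Per kilobase of exon, its mean level in cDC1 was 7.80 CPM in the WT libraries, 27.4 in those of Xbp1 KO and then 8.33 in those of Xbp1-Ire1 KO, and in cDC2 it was 12.9, 36.6 and 12.7 CPM. On the same scale Arf1 had a mean of 270 CPM in cDC1 WT and Arf6, which acts at the plasma membrane, a mean of 312 CPM. The Arf2 share of the summed Arf1 to Arf6 level per kilobase was 0.721 to 0.911% in cDC1 WT, 2.84 to 3.63% in Xbp1 KO and then 1.01 to 1.16% in Xbp1-Ire1 KO. The cDC2 shares were, in that order, 1.05 to 1.90%, 3.05 to 4.64% and 1.25 to 1.69%. The summed level itself was 876 to 1075 CPM per kilobase in cDC1 WT and 854 to 905 CPM per kilobase in Xbp1 KO. Within class I alone, the sum of Arf1, Arf2 and Arf3, the Arf2 share was 1.95 to 2.34% in cDC1 WT, between 7.74 and 9.85% for Xbp1 KO, and between 2.51 and 2.91% for Xbp1-Ire1 KO. In cDC2 these shares were 3.35 to 4.93%, 8.74 to 13.2% and 3.53 to 4.76%.

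None of the other ARF genes was called higher in Xbp1 KO against WT. Arf6 lay at 445 to 513 CPM in cDC1 WT, at 566 to 631 CPM in Xbp1 KO and at 425 to 470 CPM in Xbp1-Ire1 KO, so the Xbp1 KO libraries were above both other groups, whereas in cDC2 the 615 to 688 CPM of Xbp1 KO overlapped the 404 to 663 CPM of WT. Its log2 fold change in Xbp1 KO was 0.32 ± 0.11 in cDC1 and 0.3 ± 0.15 in cDC2 (edgeR adjusted p = 0.0792 and 0.528). Between the KO genotypes of cDC1, Xbp1-Ire1 KO minus Xbp1 KO, it was called at -0.41 ± 0.11 (edgeR adjusted p = 0.0293), and the call was lost without Xbp1-Ire1 KO replicate 1 or 3 or without any one of the 3 Xbp1 KO replicates (edgeR adjusted p = 0.0525 to 0.113). Arf1 stood at a log2 fold change of -0.37 ± 0.11 in cDC1 Xbp1 KO and -0.02 ± 0.10 in cDC2, and Arf3 at -0.15 ± 0.13 and -0.08 ± 0.11. Arf5 fell by 0.95 ± 0.17 in cDC1 Xbp1 KO (edgeR adjusted p = 0.00287), a call lost against the WT-named library alone (edgeR adjusted p = 0.162), and stood at -0.34 ± 0.16 in cDC2 (edgeR adjusted p = 0.521). The list of ARF and ARL genes includes Arf2 and Arl5c, and also Sar1a. Of its 27 measured genes, 8 were called in cDC1 Xbp1 KO, 29.6% beside 11.2% of all genes, 3 higher and 5 lower. The calls of Arf1, Arf4 and Arl5b were each lost in 5 of the 6 fits that left out 1 library. The median of the list was -0.15 beside -0.02 over all genes. In cDC2 2 were called, Arf2 and Arl5c, both higher, with a median of -0.08; DESeq2 called 3. Among the paralogues of Arl5c, Arl5a measured 335 to 354 CPM in cDC1 WT and 337 to 369 CPM in Xbp1 KO. Arl5b measured 20 to 76.4 CPM in cDC1 WT and 92.6 to 109 CPM in Xbp1 KO, and 13.7 to 81.2 CPM and 85.7 to 101 CPM in cDC2. All Arl5b values of Xbp1 KO were above those of WT in both cell types, with WT spread over a wide range. In cDC1 the log2 fold change of Arl5b in Xbp1 KO against WT was 1.33 ± 0.38. It ran from 0.41, against the WT-named library alone, to 2.22 over refits with other settings or libraries.

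**Figure D4:**
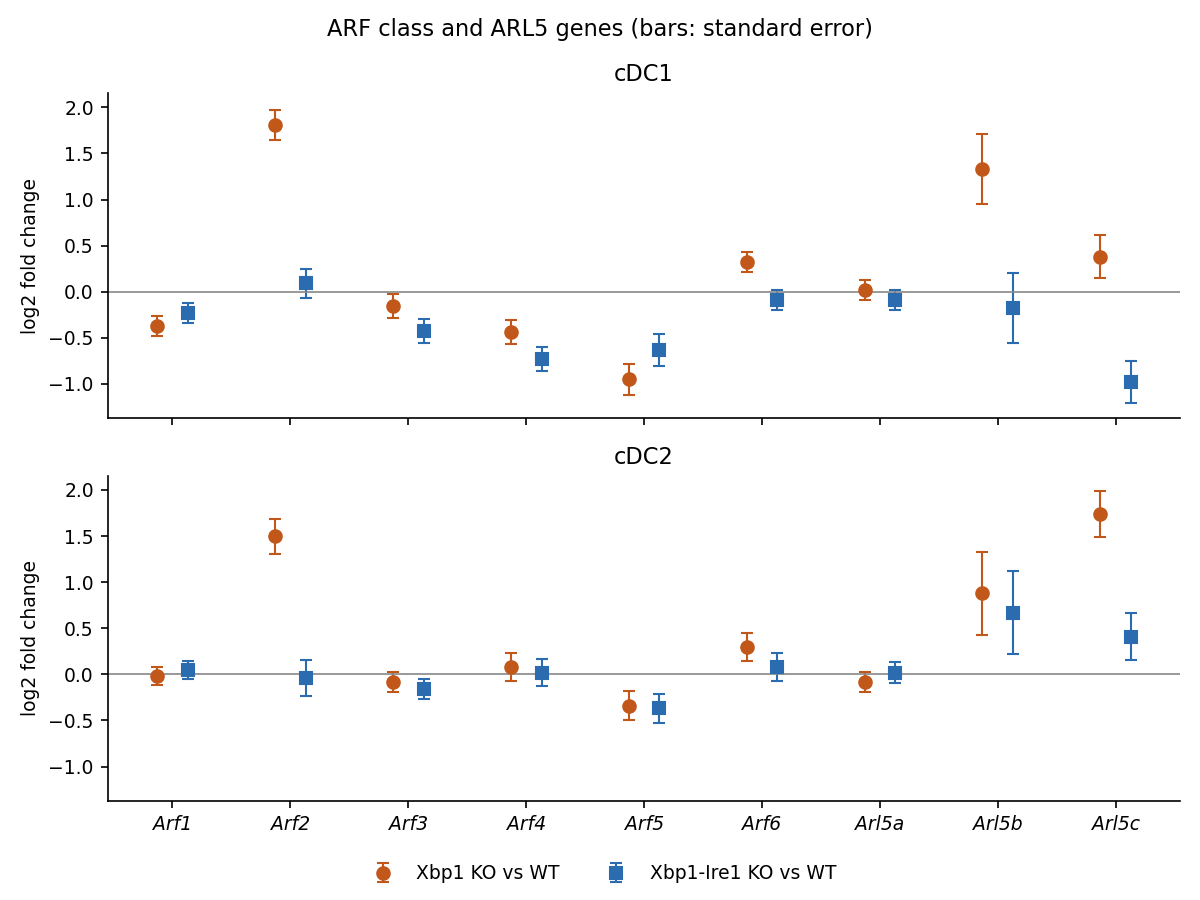
log2 fold change (vertical axis) of Arf1 to Arf6 and Arl5a to Arl5c in Xbp1 KO against WT (circles) and Xbp1-Ire1 KO against WT (squares), in cDC1 (top) and cDC2 (bottom), with standard errors as bars. Arf2 stands at 1.81 and 1.5 in Xbp1 KO and near 0 in Xbp1-Ire1 KO, apart from the other ARF genes.

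Lists of partners and relatives of the 4 gene products were counted beside the 11.2% of all genes called in cDC1 Xbp1 KO against WT and the 0.103% in cDC2. Of 20 measured LSm and Sm genes, whose proteins form the rings around small nuclear RNAs and decaying mRNAs, 2 were called lower in cDC1 Xbp1 KO (10%), Lsm12 and Lsm4, and 1 in cDC2, Lsm12; in cDC1 8 of the 20 had an unadjusted edgeR p below 0.05 and DESeq2 called 5. Their median log2 fold change was -0.27 in cDC1 and -0.24 in cDC2, below the -0.02 of all genes tested. Of 4 measured partners of LSM12 edgeR's quasi-likelihood test called 0 in Xbp1 KO of either cell type, with 0 at an unadjusted p below 0.05 and 0 by DESeq2. Of the Mediator genes, 2 of 33 measured were called lower in cDC1 Xbp1 KO (6.06%), Med1 and Med16, and 1 of 32 in cDC2, Med1, with medians of -0.12 and -0.15; in cDC1 11 of the 33 had an unadjusted edgeR p below 0.05 and DESeq2 called 4. Of 31 exchange factors and GTPase-activating proteins of ARF, 1 was called lower in cDC1 Xbp1 KO and 0 in cDC2, and of 4 measured subunits of the GARP and EARP tethers, which receive vesicles that ARL5 proteins help to dock, 1 was called higher in cDC1 and 0 in cDC2. In cDC1 these calls made up 3.23% and 25% of the lists. There DESeq2 called 4 of the 31 and 1 of the 4, and 7 and 2 had an unadjusted edgeR p below 0.05. In cDC2 DESeq2 called 0 of both lists, and 5 of the 31 and 0 of the 4 had an unadjusted edgeR p below 0.05. Each list was chosen for the roles of the 4 genes with earlier results known, and the members themselves are counted in them. The cDC1 calls of Lsm4 and Med16 were lost on leaving out WT replicate 1 or 2 or Xbp1 KO replicate 1 or 2, and that of Med16 also without Xbp1 KO replicate 3.

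The start of Arf2 is shown because its level differed most between Xbp1 KO and WT in cDC1; in cDC2 Arl5c differed more. The 250 bases before the RefSeq start, chr11:103966475-103966724 on the plus strand of GRCm38.p6, lie outside the annotated transcript. Capitals mark ATTGG, the reverse of the CCAAT box.
Arf2 promoter: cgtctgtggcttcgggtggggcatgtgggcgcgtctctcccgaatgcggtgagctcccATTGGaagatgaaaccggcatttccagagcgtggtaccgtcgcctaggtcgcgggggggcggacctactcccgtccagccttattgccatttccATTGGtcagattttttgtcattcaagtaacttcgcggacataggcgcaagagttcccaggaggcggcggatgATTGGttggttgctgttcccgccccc

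This stretch holds 3 CCAAT boxes, and 33.8% of the 32851 RefSeq mouse promoters of the same length hold at least 1. It was 59.2% GC beside a median of 52.4%. On neither strand did it hold TGACGTG (in 1.65% of promoters), TGATGCAA (in 0.791%), the ERSE (in 0.113%) or the ERSE-II (in 0.0304%), 2 motifs that hold a CCAAT box themselves, and all 4 are elements bound by factors of the unfolded protein response or the integrated stress response. The Med1 entry, which lies inside the annotated gene and is not printed, held 1 CCAAT box and none of the 4. An absent match says only that these letters are not in the window.

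Among WT libraries, cDC1 was set against cDC2 in one fit over all 19 libraries, which took the libraries as independent. Whether some cDC1 and cDC2 libraries share a mouse is not given and was not tested. Numbers in the library names recur across the cell types within a genotype, and the labels do not say what they stand for. The genes were not chosen on this contrast, but its WT libraries are the baseline of the contrasts on which they were chosen. Scaled together, Arf2 averaged 24.1 ± 4.16 CPM (SD, n = 3) in cDC1 and 37.4 ± 7.80 CPM (SD, n = 4) in cDC2. It was lower in cDC1 by a log2 fold change of -0.63 ± 0.19 (Benjamini-Hochberg adjusted p = 0.00928, edgeR quasi-likelihood), in a comparison where 40.8% of 12185 genes tested were called. All 3 cDC1 libraries, at 19.5 to 27.7 CPM, were below all 4 cDC2 libraries, at 28.8 to 47.6 CPM. Without cDC1 WT replicate 3, the lowest library, the value was -0.50 and the edgeR adjusted p 0.0533. Lsm12 differed by 0.11 ± 0.13, Med1 by -0.14 ± 0.11 and Arl5c by -0.33 ± 0.26 (edgeR adjusted p = 0.509, 0.336 and 0.322), so none of the other 3 passed the test.

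A second comparison outside the genotype contrasts was between the WT libraries that the labels name WT and those named fl-fl. It bears on the 4 genes because the fl-fl libraries carry the floxed Ern1 and Xbp1 alleles by name. By edgeR 0 of the 4 were called in either cell type, 0 had an unadjusted p below 0.05 and DESeq2 called 0, where 5.24% of all genes tested were called in cDC1 (1 library against 2, the lone one taken to vary like the other groups) and 3.41% in cDC2 (2 against 2). Arf2 was lower in the WT-named libraries by -0.44 ± 0.20 in cDC1 and -0.43 ± 0.23 in cDC2 (edgeR adjusted p = 0.230 and 0.425), and the unadjusted edgeR p was 0.0508 and 0.0883. Lsm12 stood at 0.03 ± 0.17 and 0.31 ± 0.16, Med1 at -0.15 ± 0.16 and 0.05 ± 0.16, and Arl5c at 0.19 ± 0.33 and 0.35 ± 0.31. The smallest of their 8 edgeR adjusted p-values was that of Arf2 in cDC1. These libraries are also the baseline of the contrasts on which the genes were chosen, and with groups of 1 and 2 libraries a missed threshold does not show that the levels are alike.

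Against each kind of WT library alone the values in Xbp1 KO kept their signs, but not all calls held. Refitted with the WT-named libraries as the only WT, Med1 was no longer called in either cell type nor Arl5c in cDC2, while Lsm12 and Arf2 were called in both; with fl-fl as the only WT no call of the 4 genes was lost. The values that follow come from another fit per cell type, which held both kinds of WT library as separate groups. In it Arf2 stood at 1.69 ± 0.15 in cDC1 and 1.32 ± 0.22 in cDC2 against fl-fl. Against the WT-named libraries it stood at 2.13 ± 0.21 and 1.74 ± 0.22. Lsm12 stood at -0.82 ± 0.13 and -0.98 ± 0.15 against fl-fl, and at -0.86 ± 0.16 and -1.29 ± 0.15 against the WT-named libraries. Med1 stood at -0.55 ± 0.11 and -0.75 ± 0.15, and at -0.40 ± 0.14 and -0.79 ± 0.15. For Arl5c in cDC2 the values were 1.94 ± 0.30 and 1.59 ± 0.29, and in cDC1 they were 0.45 ± 0.25 and 0.27 ± 0.31.

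Ordered by mean level within a cell type, Xbp1 KO was apart from its neighbours for Lsm12, Med1 and Arf2, while WT and Xbp1-Ire1 KO overlapped. The cDC1 means of Lsm12 were 45.8 ± 1.72 in Xbp1 KO, 82.4 ± 3.05 in WT and 95.1 ± 9.62 CPM in Xbp1-Ire1 KO (SD, n = 3 each). The cDC1 order for Arl5c was Xbp1-Ire1 KO at 15.6 ± 3.69, WT at 30.8 ± 6.48 and Xbp1 KO at 39.9 ± 9.08 CPM, of which the last 2 did not differ beyond their spread. In cDC2 it was WT at 41.4 ± 7.82 (SD, n = 4), Xbp1-Ire1 KO at 55.1 ± 26.4 and Xbp1 KO at 138 ± 5.88 CPM (SD, n = 3 each), of which the first 2 overlapped. The smallest count behind any of these values was 191, for Arl5c in cDC1 Xbp1-Ire1 KO, where counting alone gives an error of 7.24%; the spread of that group was 23.7%.

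For each gene the most similar profiles over the 19 libraries, with each cell type centred on its own mean, were ranked by Pearson's r among 10967 genes. The points share libraries, scaling and the genotype groups, so r describes these libraries and carries no p. Lsm12 was closest to Pcna (r = 0.923), the sliding clamp of DNA replication, and to Cox7a2 (0.882), Ppia (0.871) and Snrpa1 (0.870). Arf2 was closest to Tlr11 (0.872), a receptor for microbial profilin, and to Lpin1 (0.828), Pctp (0.824), Ephx1 (0.822) and Arhgap27 (0.812). The nearest profiles to Med1 were Nudt22 (0.835), then Mettl17, Lsm12 (0.827) and Acsf2 (0.812). Ppia, Pctp, Arhgap27 and Acsf2 lie on chromosome 11, and Arhgap27 lies 3.03 Mb from Ern1. Arl5c was nearest to Sult1a1 (0.857), Gpr132 (0.834) and Pnrc1 (0.833). The ranking took positive r only. Among the 4 genes r was -0.94 for Lsm12 with Arf2, -0.87 for Arf2 with Med1, 0.83 for Lsm12 with Med1, -0.78 for Arl5c with Lsm12 and with Med1, and 0.72 for Arf2 with Arl5c. The choice of the genes by their genotype differences is built into these values.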

How the data were processed

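The members and all gene lists were chosen with earlier results of these data known. The authors deposited 1 table of raw read counts per gene symbol and 1 table of log2 normalised values for each cell type; per the submitters' processing notes the tools were FastQC 0.11.4, Trimmomatic 0.35, TopHat2 2.1.0, SAMtools 0.1.19 and limma 3.42.2 on mm10. No counter, annotation or strand setting is given in the sources used here. The deposited log2 values served only in an alternative fit. Counts were fitted with edgeR 4.0.16 in R 4.3.3 (TMM scaling, filterByExpr at count 10 and total 15, quasi-likelihood F test, Benjamini-Hochberg adjustment over all genes tested, threshold 0.05), with the 3 genotypes of a cell type in 1 fit and the 6 groups in 1 fit for WT cDC1 against cDC2. SE is the log2 fold change divided by the root of F. All 4 genes passed the count filter in both cell types. CPM are TMM-scaled within a cell type. Levels per kilobase use the union of annotated exons. DESeq2 1.42.0 and limma 3.58.1 gave alternatives. The procedure was tested on simulated counts. Positions come from GENCODE M21, which matched 23384 of the 24421 symbols.

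Named besides the 4 genes are their tested neighbours, the genes on either side of the window limit, up to 4 genes in each direction with the smallest adjusted p in the window, up to 5 most similar profiles per gene, up to 4 called genes per list, and paralogues. Some genes that this rule allows are counted and not named. Identity of Arf2 to Arf1 and Arf3 was taken over coding bases. Replicate numbers were not used to pair libraries in the main fits. They are the numbers of the sample titles, and some library names carry other numbers. After removing group means, same-numbered libraries of different genotypes correlated at -0.152 to 0.234 in cDC1 and -0.119 to 0.228 in cDC2. Those with different numbers correlated at -0.211 to 0.144 in cDC1 and -0.217 to 0.149 in cDC2. This compared libraries within a cell type only, so it could not show whether cDC1 and cDC2 libraries share a mouse.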

Additional observations from a re-analysis of the deposited data

How the results depend on the processing

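Over 452 refits of the 4 genes' log2 fold changes 437 kept the sign, 0 reversed while called, 26 lost their call and 3 gained one; the 15 sign changes were of uncalled values. Scaling by DESeq2 size factors and limma on the deposited log2 values changed no call of the 4 genes. The replicate block used replicate numbers that are not known to pair the libraries. It called 2 of the 4 in cDC2 Xbp1 KO against WT, losing Med1 (-0.85, edgeR adjusted p = 0.0629) and Arl5c (1.77, edgeR adjusted p = 0.0864). It also called 190 genes between WT names in cDC2. With WT-named libraries as the only WT the count in cDC2 was also 2. Calls over all genes moved far more than the values of the 4, and the cause was not tested.

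For cDC1 Xbp1 KO against WT, 1270 calls became 2926 against fl-fl alone and 345 against WT-named alone. For cDC1 Xbp1-Ire1 KO against WT, 880 became 1371 with DESeq2, 1966 and 580. For cDC2 Xbp1 KO against WT, 12 became 46 with DESeq2, 21 unfiltered, 740 and 6. For cDC2 Xbp1-Ire1 KO against WT, 3 became 6 with DESeq2 and 485 against fl-fl. For cDC2 Xbp1-Ire1 KO against Xbp1 KO, 4 became 11 with DESeq2. Between WT names, 649 became 1085 with DESeq2 and 1205 unfiltered in cDC1, and 407 became 711 and 656 in cDC2. With DESeq2 the higher share of calls in cDC2 was 47.8% in Xbp1 KO and 83.3% in Xbp1-Ire1 KO, against 66.7% and 100%.

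Leaving out 1 library at a time gave 471 to 2926, 430 to 1966 and 648 to 1297 calls in the cDC1 comparisons in the order above, ending with Xbp1-Ire1 KO against Xbp1 KO, 9 to 13, 3 to 4 and 2 to 8 in those of cDC2, 191 to 244 and 123 to 219 between WT names, and 4158 to 5087 between WT cell types. Of the 4 genes it gave 0 to 1 calls in cDC1 Xbp1-Ire1 KO against WT, 1 to 3 in cDC2 Xbp1-Ire1 KO against Xbp1 KO, and 0 to 1 between WT cell types. Windows of 5 and 15 Mb gave 12.1% and 12.5% called in cDC1 Xbp1 KO. Of 471 refits of called values of the other named genes, 111 lost the call and 0 reversed.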
